A study of Homo sapiens with 6 samples.

Results

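*PALM*, *MAGED1*, *GNG4* and *C1orf198* are 4 of the 21475 genes measured in RNA of HaCaT keratinocytes with and without the receptor gene *FGFR2*. They were picked from the measured values: they stand in the first 12 lines of the expression tables and their FGFR2 KO values all lie outside the range of the WT values, and they were assigned to no pathway. Their difference between KO and WT is therefore given as a description, without a test. *PALM* was low in the KO cell lines, at 20.3% of its WT mean, while *MAGED1*, *GNG4* and *C1orf198* were high, at 2.84, 2.71 and 2.12 times their WT means.

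HaCaT is an immortalized line of human epidermal keratinocytes that arose without a viral oncogene. Total RNA of 3 WT and 3 FGFR2 KO cell lines, 1 library per line, was compared at baseline, all lines being grown in high-glucose DMEM with FBS and given no cytokine or FGF. The KO lines were made with CRISPR/Cas9 and a guide to an exon of *FGFR2*, and were expanded from sorted single cells, so each KO replicate is 1 clone. According to the study its WT lines comprise expanded WT clones and the population from which the KO lines were made. A figure legend of the study instead describes the 3 HaCaT lines of this series as clonally expanded. The labels do not say what each WT replicate is. Clonal differences and the loss of the receptor therefore cannot be told apart within 1 line, and any p-value measures the spread between lines.

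The 4 proteins have little in common. *PALM* encodes paralemmin-1, a lipid-anchored phosphoprotein of the inner face of the plasma membrane, abundant in brain, that takes part in shaping cell processes. *MAGED1* encodes a type II MAGE protein (also called NRAGE), an adaptor that binds receptors such as NGFR, the ring finger ligase PJA1, the apoptosis inhibitor XIAP and homeodomain factors of the DLX and MSX families. *GNG4* encodes a gamma subunit of heterotrimeric G proteins, which forms a lasting dimer with a beta subunit, is held at the membrane by a prenyl group and passes signals from G protein-coupled receptors. *C1orf198* encodes a protein without an established function.

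The authors deposited FPKM, fragments scaled to transcript length and library depth. Depth was read from the steps between low values and came to between 67800000 and 88100000 fragments per library, so that 1 fragment on a transcript of 1 kb is worth between 0.0114 and 0.0147 FPKM. *FGFR2* was at 21.6, 39.7 and 15 FPKM in the WT and at 3.04, 2.26 and 4.31 FPKM in the KO libraries, so every KO library carried less of it than any WT library. All 18 keratinocyte markers on the list were detected in the tested range, with *KRT5* between 6086 and 14768 FPKM. Of the other cell types, *PTPRC* was at no more than 0.153 FPKM, *PECAM1* at no more than 0.321 FPKM, and *KDR*, *CD1A* and *CD3D* were listed at 0. The fibroblast list summed to 7.99 to 33.2 FPKM in WT and 6.96 to 12.6 FPKM in KO libraries, with *COL1A1* at 6.82 to 16.7 FPKM, *DCN* at 15.5 FPKM in WT replicate 2 and at no more than 1.66 FPKM elsewhere, and 0 of 8 genes at 0 in all libraries. The melanocyte list summed to 3.06 to 5.58 FPKM in WT and 1.24 to 4.86 FPKM in KO. *CDH5* of the endothelial list was at 4.92 FPKM in WT replicate 2 and at no more than 0.128 FPKM elsewhere. The summed immune list was at 12.4 to 22.1 FPKM in WT and 5.26 to 11.7 FPKM in KO libraries, and the summed endothelial list at 18.1 to 27.2 and 5.82 to 17.5 FPKM, most of it *CD68* and *VWF*. As deposited, both sums were lower in every KO library than in any WT library, in the direction of *PALM*. For the endothelial list the gap was narrow, and with TPM scaling 0 of its 2 tested genes kept their KO values all outside the WT range. The part of both lists in the values below was not tested. The share of FPKM on mitochondrial genes was 21.5 to 27.6% in WT and 11.9 to 23.7% in KO libraries.

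RefSeq promoters were matched for *MAGED1*, *GNG4* and *C1orf198*, the 3 genes that were high in the KO lines. They are printed to show what the upstream sequences of these genes do and do not share, as 250 bases up to the base before a RefSeq start (GRCh38.p14, 5′ to 3′ on the strand of the gene). Capitals mark the GC box letters GGGCGG on either strand. The regions are chrX:51893373-51893622 on the plus strand for *MAGED1*, chr1:235650609-235650858 on the minus strand for *GNG4* and chr1:230868522-230868771 on the minus strand for *C1orf198*.
MAGED1: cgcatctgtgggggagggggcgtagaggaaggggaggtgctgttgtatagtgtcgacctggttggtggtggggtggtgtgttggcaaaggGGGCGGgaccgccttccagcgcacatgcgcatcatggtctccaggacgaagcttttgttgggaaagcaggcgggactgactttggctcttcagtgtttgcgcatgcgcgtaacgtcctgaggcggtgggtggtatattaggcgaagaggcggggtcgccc
GNG4: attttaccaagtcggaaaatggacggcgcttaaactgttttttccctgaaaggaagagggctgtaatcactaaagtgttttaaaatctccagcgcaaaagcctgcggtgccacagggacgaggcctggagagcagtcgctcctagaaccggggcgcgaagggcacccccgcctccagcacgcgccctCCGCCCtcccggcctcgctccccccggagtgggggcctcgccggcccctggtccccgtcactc
C1orf198: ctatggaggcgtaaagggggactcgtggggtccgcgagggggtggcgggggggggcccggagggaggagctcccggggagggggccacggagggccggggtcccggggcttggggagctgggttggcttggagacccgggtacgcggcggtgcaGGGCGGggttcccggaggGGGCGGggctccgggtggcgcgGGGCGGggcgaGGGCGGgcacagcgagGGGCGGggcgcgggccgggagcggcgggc

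The *C1orf198* window held 5 GC boxes, between 29 and 96 bases before the start, and the *MAGED1* and *GNG4* windows held 1 each, at 160 and 63 bases. Of 35114 RefSeq promoters of the same length, 42.6% held at least 1 GC box, so its presence does not set these genes apart. The windows were above the median in CpG: *C1orf198* had 30 CpG at a GC content of 81.6%, *GNG4* had 20 at 62.4% and *MAGED1* had 17 at 61.2%, beside a median of 11 CpG and 58% GC over all promoters. Of all promoters 88, 68 and 61% held fewer CpG than these windows, so those of *GNG4* and *MAGED1* were ordinary. None of the 3 windows held a CCAAT box (CCAAT, in 32% of all promoters), a TATA box (TATAAA, 10.7%), an E-box (CACGTG, 6.35%), an AP-1 site (TGACTCA or TGAGTCA, 4.20%) or a CRE (TGACGTCA, 1.65%). The absence of these letters says only that they are not in these windows. The *MAGED1* and *C1orf198* windows end at the start of the MANE transcript, the reference transcript of each gene, while the *GNG4* window lies 824 bases upstream of it. RefSeq lists a further start for 2 of the genes, 90547 bases upstream for *MAGED1* and 1070 bases upstream for *C1orf198*. These windows were poorer in CpG, with 6 and 3, and held no GC box. Their matches were ETS cores (CGGAAG on either strand, in 16.5% of all promoters), 1 at 22 bases before the *MAGED1* start and 2 at 220 and 51 bases before the *C1orf198* start, and the 3 printed windows held none.

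*PALM* (ENSG00000099864) spans chr19:708935-748329 on the plus strand in GRCh38, and its MANE transcript has 9 exons and 2891 bases. It was at 7.30, 4.20 and 8.73 FPKM in WT replicates 1, 2 and 3 and at 1.03, 1.69 and 1.38 FPKM in FGFR2 KO replicates 1, 2 and 3. The groups did not overlap, and the lowest WT line, replicate 2, still had 2.49 times the level of the highest KO line. WT lines averaged 6.74 ± 2.32 FPKM and KO lines 1.37 ± 0.329 FPKM (SD, n = 3 each), and the difference on log2(FPKM + 0.5) was -1.92 with a standard error of 0.29. WT was the more variable group for this gene, with a coefficient of variation of 34.3% against 24.1%. *PALM* stood between the 21.5th and 35.9th percentile of the tested genes in WT libraries and between the 5.85th and 10.8th in KO libraries. Of the 706 tested genes whose KO values all lay below the WT values, 6 had a more negative difference on this scale.

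*PALM* and *FGFR2* were both low in KO cells, but not in step within a group. Relative to the WT mean of its own log2 values, *PALM* was at 0.16, -0.57 and 0.41 in WT replicates 1, 2 and 3, whereas *FGFR2* was at -0.12, 0.75 and -0.63. The WT line with the most *FGFR2*, replicate 2, thus had the least *PALM*, and the line with the least *FGFR2*, replicate 3, had the most. In the KO libraries *PALM* was at -2.19, -1.67 and -1.89 and *FGFR2* at -2.76, -3.12 and -2.32. KO replicate 2 had the most *PALM* and the least *FGFR2* of the 3. With 3 lines a group, no correlation was computed.

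*MAGED1* (ENSG00000179222) spans chrX:51803007-51902354 on the plus strand, with a MANE transcript of 13 exons and 2723 bases. It was at 4.11, 4.63 and 3.48 FPKM in the WT and at 10.3, 13.3 and 11.1 FPKM in the KO replicates. The groups did not overlap: the lowest KO value was 2.23 times the highest WT value. WT lines had a mean of 4.07 ± 0.579 FPKM and KO lines one of 11.6 ± 1.55 FPKM (SD, n = 3 each), a log2 difference of 1.40 with a standard error of 0.18. The lines of a group lay close together, with coefficients of variation of 14.2% in WT and 13.4% in KO. This placed *MAGED1* between the 19.7th and 23.0th percentile of the tested genes in WT and between the 38.0th and 45.0th in KO libraries.

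*GNG4* (ENSG00000168243) spans chr1:235547685-235650754 on the minus strand, with a MANE transcript of 4 exons and 4897 bases. It had the lowest levels of the 4 genes in WT, at 0.967, 1.12 and 1.43 FPKM, and was at 3.79, 2.91 and 2.86 FPKM in the KO replicates. Again no KO line fell within the WT range, the nearest values being 1.99 times apart. On average WT lines had 1.17 ± 0.239 FPKM and KO lines 3.18 ± 0.524 FPKM (SD, n = 3 each), and the log2 difference was 1.14 with a standard error of 0.21. Because the level is near the pseudocount of 0.5, this value understates the ratio of the means, and with a pseudocount of 0.1 it was 1.37. At the length of the MANE transcript the values correspond to between 371 and 1634 fragments, and counting error at the fewest was 5.19%, below the 20.4% and 16.5% by which the WT and KO lines varied.

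*C1orf198* (ENSG00000119280) spans chr1:230837119-230869589 on the minus strand, with a MANE transcript of 4 exons and 3726 bases. It was at 5.16, 5.12 and 6.08 FPKM in the WT and at 12.3, 9.29 and 13.1 FPKM in the KO replicates. The groups did not overlap, but the gap was the smallest of the 4 genes, the lowest KO line having 1.53 times the highest WT line. The means were 5.45 ± 0.541 and 11.6 ± 2.0 FPKM (SD, n = 3 each), and the log2 difference was 1.01 with a standard error of 0.18. Here the KO lines were the more variable, at 17.3% against 9.93%, with replicate 2 below the other 2. KO replicate 2 also had the highest mitochondrial share of the KO libraries, 23.7% against 15.8 and 11.9%, and its part in the *C1orf198* value was not tested. Scaled to nuclear FPKM, the nearest values of the groups were 1.57 times apart.

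**Figure D1:**
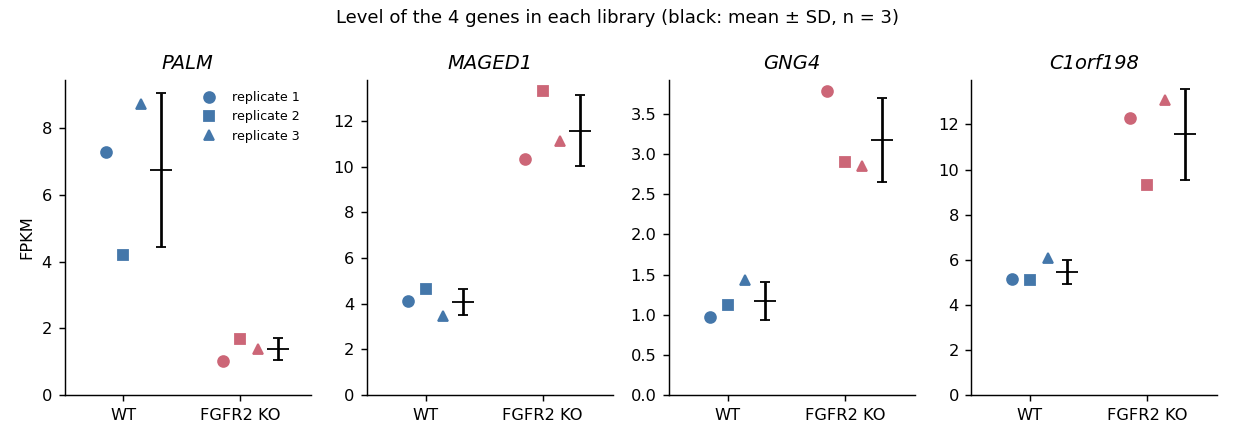
Level in FPKM (linear axis from 0) of *PALM*, *MAGED1*, *GNG4* and *C1orf198* in each of the 3 WT and 3 FGFR2 KO libraries, with the symbol giving the replicate and the black bars the mean ± SD. All KO points of *PALM* lie below its lowest WT point of 4.20 FPKM, and all KO points of the other genes lie above their highest WT points of 4.63, 1.43 and 6.08 FPKM.

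FPKM is a level per transcript length, so the 4 genes can be set side by side within a group. In WT the order of the means was *PALM* (6.74), *C1orf198* (5.45), *MAGED1* (4.07) and *GNG4* (1.17 FPKM). *PALM* and *C1orf198* did not differ beyond the spread of *PALM*, whose replicate 2 lay below all 3 *C1orf198* values, whereas *GNG4* was the lowest in every WT library. In KO cells *MAGED1* and *C1orf198* had the same mean of 11.6 FPKM with overlapping lines, *GNG4* followed at 3.18 FPKM and *PALM* came last at 1.37 FPKM. The order of *PALM* and *GNG4* was thus the opposite in the 2 groups, in every library.

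The values of the 4 genes have to be read against the whole table. By limma 0 of 12241 tested genes (0%) passed an adjusted p of 0.05 with a log2 difference of at least 0.5 in size, with 0.261 as the lowest adjusted p found. The study itself used DESeq2, a count model, and reported differentially expressed genes at a false discovery rate of 0.05, with *FGFR2* strongly lower. The limma test on FPKM stands in for that model, so its 0 does not mean that no gene differed. The same size with an unadjusted p of 0.05 was met by 1536 genes (12.5%), 1251 of them higher (10.2%) and 285 lower (2.33%) in KO. Counting only genes whose KO values all lay outside the WT range gave 2951 genes (24.1%), 2245 above (18.3%) and 706 below (5.77%). Non-overlap is thus a common pattern here, and lower genes with it are scarcer than higher ones. That split depends on the scaling: with median-of-ratios scaling 1515 genes lay above and 1290 below, and the unadjusted counts were 818 higher and 488 lower. Non-overlap of the 4 genes did not depend on it, as the nearest values stayed at least 2.39 times apart for *PALM*, 2.11 for *MAGED1*, 1.82 for *GNG4* and 1.47 for *C1orf198* under TPM, nuclear and median-of-ratios scaling.

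In size of change the 4 genes differed. Among the 2245 genes that lay above WT, 42 had a larger log2 difference than *MAGED1*, 111 than *GNG4* and 182 than *C1orf198*. The median difference of all tested genes was 0.09. What orders the tables is not given in the sources used here. The 4 genes stand in lines 3, 4, 7 and 12, below *FGFR2* in line 1. The next gene in the table, *CDCA7* in line 13, was also separated, with 4.21, 3.62 and 5.26 FPKM in WT and 13.4, 9.0 and 21.9 FPKM in KO libraries.

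**Figure D2:**
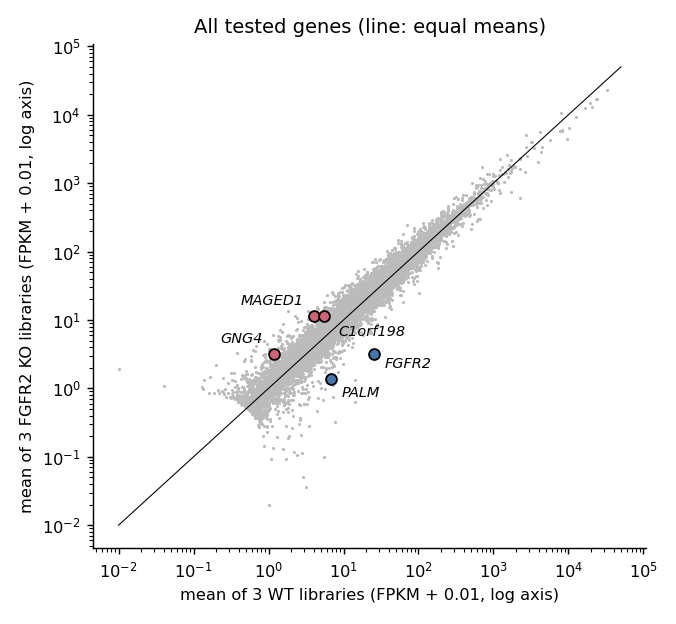
Mean of the 3 FGFR2 KO libraries against the mean of the 3 WT libraries (FPKM + 0.01, both axes logarithmic) for the 12241 tested genes in grey, with the line of equal means. *PALM* (6.74 in WT and 1.37 in KO) lies below the line near *FGFR2*, and *MAGED1*, *GNG4* and *C1orf198* lie above it near the upper rim of the cloud.

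The family of *PALM* was small, and its members differed in both directions. Of the 6 symbols on the paralemmin list 4 are in the tables, and 3 were expressed enough to be tested. *PALMD*, encoding palmdelphin, the cytosolic relative, was at 11.2, 9.07 and 7.03 FPKM in WT and 4.31, 9.61 and 4.83 FPKM in KO replicates, with overlapping groups and a log2 difference of -0.57 (SE 0.31). *PALM2AKAP2*, a locus that joins a paralemmin with an anchoring protein of protein kinase A, was at 4.47, 2.37 and 7.72 FPKM in WT and 10.1, 5.18 and 13.6 FPKM in KO. It differed in the opposite direction from *PALM*, by 0.95 (SE 0.45), also with overlap. *PALM3* was below 0.1 FPKM throughout. *PALM* supplied 31.8, 26.8 and 37.1% of the summed FPKM of the family in the WT libraries and 6.65, 10.2 and 6.95% in the KO libraries. Its rank among the 4 was 2, 2 and 1 in the WT libraries and 3 in each KO library, while the family without *PALM* summed to 11.5 to 15.7 FPKM in WT and 14.5 to 18.5 FPKM in KO.

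The MAGE proteins share a homology domain. Type I genes are silent in most adult tissues and are known as cancer-testis antigens, and type II genes such as *MAGED1* are broadly expressed. Of the 24 type I genes 14 were at 0 in all libraries and 0 reached the level for testing, and their summed FPKM was 0.0835 to 0.157 in WT and 0.0566 to 0.639 in KO. Of the 11 type II genes beside *MAGED1*, 6 were tested. Among these, 1 passed the unadjusted rule and was separated (16.7%, beside 24.1% of all genes), 5 of 6 had a positive difference as deposited, and the median was 0.26. The most abundant were *MAGEF1* and *MAGED2*. *MAGEF1* was at 37.7, 43.9 and 48.9 FPKM in WT and 49.9, 41.9 and 42.7 FPKM in KO, and its difference of 0.05 changed sign with the scaling. *MAGED2*, a close relative, was at 29.6, 44.6 and 40.1 FPKM in WT and 35.4, 34.2 and 31.4 FPKM in KO, with a difference of -0.16 (SE 0.17).

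The type II gene that did separate was *MAGEE1*, which like *MAGED1* is on the X chromosome. Its WT mean of 0.484 FPKM was under the level for testing. It reached that level only through its KO mean of 1.39 FPKM, so its values are a description. It was at 0.599, 0.256 and 0.596 FPKM in WT and 1.16, 1.44 and 1.56 FPKM in KO replicates. The groups did not overlap, with a log2 difference of 0.96 (SE 0.25), and the adjusted p by limma was 0.261. *MAGED1* made up 5.23, 4.65 and 3.37% of the summed type II FPKM in WT and 9.49, 12.9 and 11.8% in KO. Its rank among the 12 genes was 4, 3 and 4 in WT and 3 in each KO library. *NDN*, encoding the growth suppressor necdin, varied widely within KO: 4.76 and 4.99 FPKM in replicates 1 and 2 and 0.386 FPKM in replicate 3.

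Of the 9 genes listed for known partners of MAGED1, 8 were tested. By the unadjusted rule, which 12.5% of all genes passed, 1 was higher and 1 lower, and the median was -0.13. Of the 8, 3 were separated (37.5%, beside 24.1% of all genes), 2 above and 1 below WT. *AATF*, encoding a transcription cofactor with anti-apoptotic activity, was at 44.3, 33.3 and 39.8 FPKM in WT and 51.0, 57.2 and 69.8 FPKM in KO, a difference of 0.59 (SE 0.17) without overlap. *MSX2*, a homeodomain repressor, was the one that was lower, at 7.33, 5.11 and 6.24 FPKM in WT and 3.81, 3.85 and 4.07 FPKM in KO (-0.60, SE 0.18). *NGFR*, the neurotrophin receptor to which MAGED1 binds, was at 17.2, 11.9 and 31.4 FPKM in WT and 13.5, 11.2 and 5.61 FPKM in KO, so the groups overlapped (-0.93, SE 0.41). *PJA1* overlapped between the groups, at 33.8, 32.2 and 39.9 FPKM in WT and 35.3, 36.1 and 24.1 FPKM in KO. Each of the adjusted p-values of *AATF* and *MSX2* was 0.261 by limma.

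*GNG4* was a minor gamma subunit in these cells. Of 12 gamma genes 4 were tested. Without *GNG4* 0 of 3 passed the unadjusted rule and 0 of 3 were separated (0%, beside 24.1% of all genes), with a median difference of 0.17. *GNG5* was at 41.0, 48.5 and 45.2 FPKM in WT and 57.7, 37.5 and 59.3 FPKM in KO, and *GNG12* at 31.7, 33.0 and 31.4 and at 36.2, 23.2 and 30.4 FPKM. Both overlapped between the groups. *GNG10* was at 11.2, 14.5 and 7.72 FPKM in WT and 16.9, 13.2 and 18.1 FPKM in KO, with overlap and a difference of 0.54 (SE 0.24). *GNG4* had rank 4 of 12 in each of the 6 libraries, and it supplied 1.14, 1.15 and 1.67% of the summed gamma FPKM in WT and 3.28, 3.77 and 2.55% in KO. *GNG11*, a farnesylated gamma subunit, was under the level for testing, with 0.0163, 0.0391 and 0.0324 FPKM in WT and 0.353, 0.0787 and 0.591 FPKM in KO.

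The beta subunits with which gamma subunits pair showed no comparable difference. Of 3 tested beta genes 0 passed the unadjusted rule and 0 were separated, beside 24.1% of all genes. The differences were -0.02 for *GNB2*, 0.04 for *GNB1* and 0.18 for *GNB5*. The signs of *GNB2* and *GNB1* depended on the scaling. Of 10 tested alpha genes 1 passed the unadjusted rule and 2 were separated (20.0%, beside 24.1% of all genes). Their median was 0.10, beside 0.09 over all genes. The alpha gene past the rule was *GNA12*, encoding an alpha subunit that couples receptors to RhoA, at 10.3, 8.51 and 13.2 FPKM in WT and 18.5, 15.7 and 24.2 FPKM in KO, a difference of 0.84 (SE 0.22) without overlap. The most abundant alpha gene, *GNAS*, was at 402, 499 and 372 FPKM in WT and 465, 392 and 471 FPKM in KO, with overlap.

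Among 18 genes for the handling and effectors of beta-gamma dimers 9 were tested, 1 passed the unadjusted rule, 3 were separated above WT (33.3%, beside 18.3% of all genes) and the median was 0.13. With median-of-ratios scaling 2 were separated above and 2 below WT, and with nuclear scaling 3 and 1. The gene that passed was *PREX1*, a Rac exchange factor that beta-gamma activates, at 0.325, 0.120 and 0.492 FPKM in WT and 0.732, 0.597 and 1.47 FPKM in KO (0.80, SE 0.32). With a WT mean of 0.312 FPKM, *PREX1* reached the level for testing only through its KO mean of 0.934 FPKM. *RACK1*, *GRK2* and *PLCB3* were the most abundant, with differences of 0.11, 0.13 and 0.01 and overlapping groups. GNG4 and paralemmin-1 both need lipid anchors, and the enzymes that add and remove them formed the last list: 23 of 23 were tested, 0 passed the unadjusted rule, 4 were separated (17.4%, beside 24.1% of all genes), 2 above and 2 below WT, and the median was 0.04. With median-of-ratios scaling 1 was separated above and 4 below WT, and the median was -0.06. *FDPS*, *ZDHHC5* and *LYPLA2* were the most abundant of these, at differences of 0.18, -0.03 and -0.06.

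*PALM* and *GNG4* are best known from neurons, so neural markers were looked up beside them. Of 13 neural markers 4 were tested, *GAP43* was listed at 0, and the summed list, most of it *NEFL*, was at 23.9 to 183 FPKM in WT and 174 to 233 FPKM in KO. *NEFL* alone passed the unadjusted rule, at 77.2, 16.6 and 169 FPKM in WT and 211, 161 and 224 FPKM in KO, with overlap between the groups (1.69, SE 0.73). *SYP* was at 3.52, 3.43 and 3.12 FPKM in WT and 3.66, 3.16 and 2.57 FPKM in KO. In RNA of whole cultures, fewer cells of a kind and less RNA per cell cannot be told apart.

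Position was not used to pick the genes, so the regions around them were described next. *PALM* lies in a gene-dense stretch of chromosome 19 with 44 tested genes within 1 Mb. Of these, 8 passed the unadjusted rule, all higher, a direction in which 10.2% of all genes passed it. Separated were 11 (25.0%), also all above WT, beside 18.3% of all genes that lay above WT. The median of the 44 was 0.25 and the range -0.61 to 0.82, while *PALM* was at -1.92, outside that range. *PALM* was picked by its KO and WT values and these neighbours were not, so this distance is a description and was not tested. The nearest gene on the telomeric side, *FSTL3*, which encodes a binding protein of activin, lies 25543 bases away and differed by 0.57 (SE 0.26) with overlap. The nearest on the other side, *MISP*, for a protein of spindle orientation, lies 2783 bases away and differed by 0.28 (SE 0.14) without overlap. The 8 neighbours past the unadjusted rule were *POLRMT*, *RNF126*, *WDR18*, *CNN2*, *FAM174C*, *PWWP3A*, *MEX3D* and *MBD3*, with differences from 0.50 to 0.78. With median-of-ratios scaling 9 of the 44 were separated, all above WT, and their median was 0.16. With nuclear scaling 14 were separated above and 1 below WT, and the median was 0.17.

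*MAGED1* had few tested neighbours. Its nearest was *GSPT2*, which encodes a translation termination factor and lies 56775 bases upstream. *GSPT2* was at 0.674, 0.343 and 0.345 FPKM in WT and 1.16, 1.57 and 1.48 FPKM in KO replicates, so it was separated in the same direction as *MAGED1*, by a difference of 1.01 (SE 0.25) and with an adjusted p of 0.261 by limma. Its WT mean of 0.454 FPKM was under both the level for testing and the pseudocount. *GSPT2* was tested only through its KO mean of 1.40 FPKM, so its values are a description. The other 2, *SHROOM4* and *FAM156B*, lie nearly 1 Mb away and overlapped between the groups, at 0.40 (SE 0.29) and -0.23 (SE 0.79). Over the 378 tested genes of the X chromosome the median was 0.05 and 21.7% were separated, close to all genes.

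*GNG4* and *C1orf198* lie on the same arm of chromosome 1, 4678095 bases apart. Within 1 Mb of *GNG4* 14 genes were tested, and 1 passed the unadjusted rule. Of the 14, 5 were separated above WT (35.7%, beside 18.3% of all genes), and the median was 0.16, beside 0.09 over all genes. The gene that passed was *HEATR1*, for a nucleolar protein of ribosome synthesis, 898251 bases away, with a difference of 0.70 (SE 0.19). The adjoining genes, *LYST* at 10287 bases and *B3GALNT2* at 43233 bases, differed by -0.43 (SE 0.20) with overlap and by 0.36 (SE 0.16) without. The count of separated neighbours depended on the scaling, with 2 above and 3 below WT under median-of-ratios scaling. Within 1 Mb of *C1orf198* 13 genes were tested, 0 passed the unadjusted rule, 3 were separated (23.1%, beside 24.1% of all genes) and the median was 0.19. The adjoining *TTC13* and *COG2*, at 36654 and 143137 bases, differed by 0.52 (SE 0.23) and 0.28 (SE 0.14), both without overlap as deposited. Of the 25 tested genes between *C1orf198* and *GNG4*, 3 passed the unadjusted rule, all higher, a direction in which 10.2% of all genes passed it. Of the same 25, 9 were separated (36.0%, beside 24.1% of all genes), 8 above and 1 below WT, with a median of 0.21.

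Genes that overlap the 4 in the annotation could share their reads. *PALM* has none. *MAGED1* spans a processed pseudogene and *RNU6-504P*, *GNG4* spans 2 processed pseudogenes, and the start of *C1orf198* is overlapped by the long noncoding RNA gene ENSG00000223393 on the opposite strand. None of these 5 is in the tables. The library kit keeps the strand, and whether the quantification used it is not given in the sources used here.

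For each gene the 3 tested genes with the most similar profile were found by the root mean square difference between log2(FPKM + 0.5) values centred on their own mean, over the 6 libraries. This likeness is dominated by the contrast between the groups that picked the genes. For *PALM* the closest was *ABCA4*, encoding a retinoid transporter, at a distance of 0.401 beside a median of 1.09 over all genes. *ABCA4* was at 5.40, 2.01 and 7.35 FPKM in WT and 1.57, 1.03 and 1.02 FPKM in KO, so it repeated the order of *PALM* within WT, replicate 3 highest and replicate 2 lowest. *BAMBI*, a decoy receptor of the TGF-beta family, and *ANK3*, encoding a membrane-skeleton ankyrin, followed at 0.541 and 0.548. No gene was as close to *PALM* as the nearest ones were to the other 3 genes.

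For *MAGED1* the closest were *KDM1A*, encoding a histone demethylase, at 0.217, the immediate early gene *FOS* at 0.260 and the ethanolamine kinase gene *ETNK2* at 0.270, beside a median of 0.709. *KDM1A* was a far more abundant gene, at 117, 131 and 94.5 FPKM in WT and 203, 238 and 252 FPKM in KO. *GNG4* and *C1orf198* resembled each other: *C1orf198* was among the 3 genes closest to *GNG4*, at 0.178, and *LRRC75B* was the closest to both, at 0.135 and 0.0751. *LRRC75B* was at 1.12, 1.04 and 1.45 FPKM in WT and 3.55, 2.37 and 3.17 FPKM in KO. Between *LRRC75B* and *C1orf198* in distance from *GNG4* came *AP3B2*, a subunit of a neuronal adaptor complex, at 0.159. *PIP4P2*, encoding a phosphoinositide phosphatase, and *CAV1*, encoding the caveolar coat protein caveolin-1, followed for *C1orf198* at 0.0869 and 0.116. *CAV1* was at 272, 284 and 343 FPKM in WT and 568, 468 and 779 FPKM in KO, with its lowest KO value in replicate 2 like *C1orf198*.

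**Figure D3:**
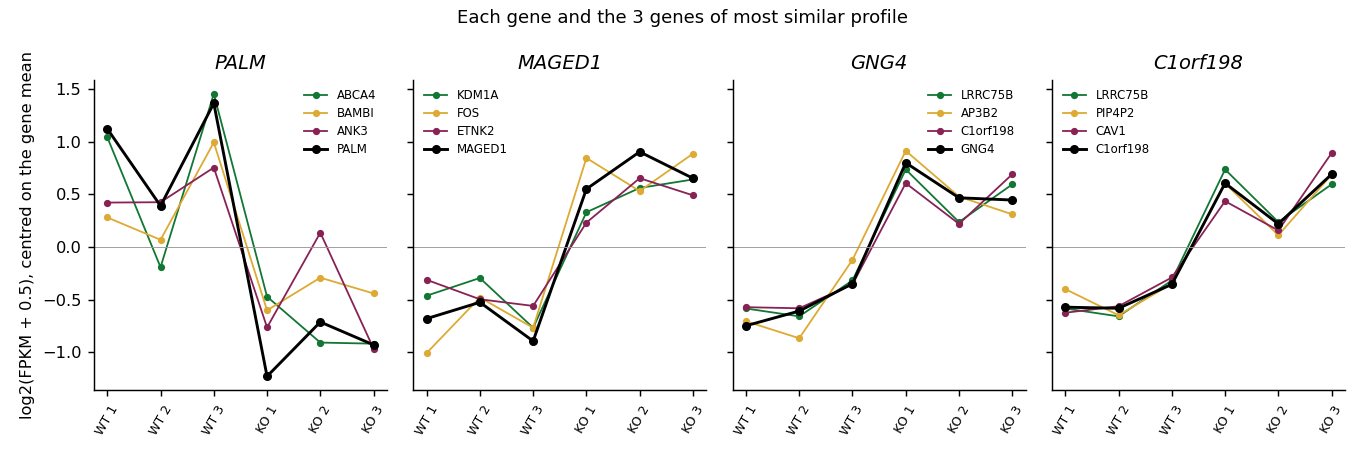
Profiles of *PALM*, *MAGED1*, *GNG4* and *C1orf198* (black) and the 3 genes closest to each (colours) over the 6 libraries, as log2(FPKM + 0.5) centred on the mean of each gene, with lines that only link the values of a gene. The *C1orf198* profile is nearly covered by those of *LRRC75B*, *PIP4P2* and *CAV1* (0.0751 to 0.116), and the *PALM* profile stands apart from *BAMBI* and *ANK3* (0.541 and 0.548) in the KO libraries.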

How the data were processed

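Per the labels and the study's methods, poly-A selected RNA of 6 HaCaT cell lines was sequenced from strand-specific libraries, and the authors trimmed reads with fastp 0.20.0 and quantified them with kallisto 0.46.1 on GRCh38.p13 with GENCODE 37 models. The authors deposited FPKM values, 1 table per library with 21493 lines. How FPKM was derived is not given in the sources used here. After removal of 18 Y copies of pseudoautosomal genes, 21475 genes were used, 21400 of them with a symbol from GENCODE 44. Of the low values of genes with 1 transcript 65.5 to 67.8% were whole fragments within 0.02, against 4% by chance, so whole reads were not recovered and no count model was run.

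The 12241 genes that averaged 0.5 FPKM or more were tested between KO and WT by limma 3.58.1 (R 4.3.3) on log2(FPKM + 0.5), with a mean-variance trend, without covariates, and with Benjamini-Hochberg adjustment. A log2 difference on this scale understates the change of low genes. The unadjusted rule in the text is p of at most 0.05 and a log2 difference of at least 0.5 in size. Genes are called separated where the KO values all lie above or all below the WT values, a pattern for which an exact two-sided permutation test of 3 against 3 lines cannot give a p under 0.1. The script was run on simulated data. Every simulated gene had the same spread, set below the median spread of the real genes, so that run does not measure power in these lines. Counting errors cover counting only.

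The 4 genes, the gene lists and the alternatives were chosen with earlier results of these data known. Named are the 4 genes, *FGFR2*, up to 3 most abundant genes and those past the unadjusted rule of each list, the adjoining genes and those past the unadjusted rule within 1 Mb, and the 3 genes of closest profile. Other genes named were chosen after their values were seen. Alternatives were pseudocounts of 0.1 and 1, no filter on low values or one at 2 FPKM, TPM, quantile, median-of-ratios and nuclear scaling, a robust or trend-free Bayes step, library weights, a replicate block, removal of chromosome medians and leaving out each library. Promoters were taken from RefSeq (GRCh38.p14). No sequence is shown for *PALM*. 1 listed gene is not reported here.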

Additional observations from a re-analysis of the deposited data

How the results depend on the processing

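*PALM*, *MAGED1*, *GNG4* and *C1orf198* kept their sign under each of 19 alternatives, from -2.20 to -1.67, 1.30 to 1.49, 0.94 to 1.38 and 0.91 to 1.15. The 4 genes were picked with all KO values outside the WT range, so most alternatives could not change a sign. Only TPM, quantile, median-of-ratios and nuclear scaling and the removal of chromosome medians could have done so. Without each library in turn the ranges were -2.20 to -1.71, 1.30 to 1.49, 1.03 to 1.25 and 0.92 to 1.15. *GNG4* was at 1.37 with a pseudocount of 0.1 and at 1.38 with library weights. The number of genes past the adjusted threshold was 0 in each alternative but library weights, which gave 1396 (1160 higher, 236 lower) and put 89.7% of the WT weight on replicate 1. Leaving out a library left it at 0 to 0. The unadjusted count of 1536 ranged from 633 (without KO replicate 3) to 2262, with 961 without WT replicate 1, and the separated count of 2951 from 3261 to 5442 (without KO replicate 2), with 4861 without WT replicate 3, since fewer values must then be separated. The unadjusted split was 1458 higher and 230 lower with TPM scaling, 807 higher and 500 lower with quantile normalization, 930 and 400 with nuclear scaling and 798 and 457 with chromosome medians removed. The separated split was 2462 and 558 with TPM scaling, 1581 and 1273 with quantile normalization and 1901 and 951 with nuclear scaling. Replicate numbers are shared between WT and KO, but same-numbered libraries did not deviate together (correlations of -0.21, 0.23 and 0.05). With the number as a replicate block the 4 differences stayed at -1.92, 1.40, 1.14 and 1.01, as they must in this balanced design. With the block 0 genes were called and 1762 passed the unadjusted rule. The lowest adjusted p by limma was 0.0972 with the block and 0.261 without it. At the MANE length the fewest fragments were 263, in *PALM*, a counting error of 6.17%.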

Other observations

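WT replicate 2 stood apart in genes of several lists, chosen here after their values were seen. *GNAO1*, encoding a neuronal G protein alpha subunit, was at 14.9 FPKM in WT replicate 2 and between 1.69 and 4.28 FPKM in the other 5 libraries. *ZDHHC2*, encoding a palmitoyltransferase, was at 5.55 FPKM there and between 0.129 and 0.755 FPKM elsewhere. *DLX5*, a homeodomain gene of the MAGED1 partner list, was at 5.82 FPKM there, with 23.3 and 23.1 FPKM in the other 2 WT lines and 7.86 to 16.4 FPKM in the KO lines, so it was close to KO replicate 3. Among the markers of other cell types, *DCN*, a fibroblast marker, was at 15.5 FPKM there and between 0.0268 and 1.66 FPKM elsewhere. *CDH5*, an endothelial marker, was at 4.92 FPKM there and at no more than 0.128 FPKM elsewhere. WT replicate 2 was also the line with the least *PALM*, at 4.20 FPKM, and without it the *PALM* difference was -2.20. The part of these genes in the *PALM* value was not tested.

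Among the genes under the level for testing, *GRK3*, a receptor kinase that beta-gamma dimers recruit, was at 0.592 FPKM in KO replicate 1 and at no more than 0.0819 FPKM in the other libraries. For *GNG2*, KO replicates 1 and 3 had 0.409 and 0.681 FPKM and KO replicate 2 had 0.024 FPKM, beside 0.0380 to 0.144 FPKM in WT. *GNG11* had the same order among the KO lines, with replicate 3 highest and replicate 2 lowest. These values differ between clones of 1 group and were not tested.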
